A study of Mus musculus with 36 samples.

Results

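The genes described here act in mitosis, the division of duplicated chromosomes between daughter cells. They were taken from a list of 42 genes chosen for that role: cyclins and Cdk1, partners of the anaphase promoting complex, mitotic kinases, spindle checkpoint proteins, kinesins, kinetochore and spindle proteins, cytokinesis factors, chromosome structure proteins and 2 regulators. Each gene was read from its probe set of highest mean that names only that gene, which gave 41 of the 42 genes, against 18194 genes with such a probe set in the whole table. The level of Ccnb1, the gene of cyclin B1, was not analysed here, and only its promoter was read. All 41 had a mean above the limit set for low values, so none was lost to that filter.

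Spleens of 36 mice aged 4 months were profiled, each on its own Affymetrix mouse array. The animals were F2 offspring of a cross, 18 with arthritis and 18 without, and the series title describes deficiency for interleukin 1 receptor antagonist, the natural inhibitor of interleukin 1 that Il1rn encodes. The labels give no genotype for any animal, so it is not known whether the arthritis-free mice carry the deficiency too, and they give no sex, score or date. The design text opens with a count of F2 mice that does not match its own group sizes, and the 18 and 18 arrays of the labels were used. For Il1rn itself the mean log2 level was 6.48 ± 0.65 (SD, n = 18) with arthritis and 6.52 ± 0.55 (SD, n = 18) without it (arthritic minus non-arthritic -0.04, SE 0.20, limma adjusted p = 0.941). Both means lay close to the limit set for low values (log2 6.49). Near-equal levels there do not show that the groups share a level of Il1rn or a genotype. Il1rn has 3 probe sets, and these values come from 1 of them. The labels do not tell if that probe set is part of the deletion. Levels are log2(intensity + 16) throughout, on which a difference of 1 is a doubling of a bright signal. The number of arrays limits the precision.

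Mitotic genes are transcribed late in the cell cycle, when cyclin B with Cdk1 drives entry into mitosis and the anaphase promoting complex then destroys the cyclins. Their promoters are known for CCAAT boxes, bound by NF-Y, and for the cell cycle genes homology region TTTGAA, where MuvB complexes repress them in resting cells and, with B-Myb and Foxm1, activate them in dividing cells. The mouse spleen keeps making red cells in adult life, and erythroid precursors divide while they mature, as do germinal centre B cells and plasmablasts. Klf1 encodes an erythroid transcription factor, Slc4a1 the anion exchanger of the red cell membrane, and Sdc1 the syndecan that marks plasma cells.

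The promoters of 6 members are shown as examples of how the CCAAT and TTTGAA letters are placed, 5 with both and 1 with neither. Each line gives the 150 bases before the gene's start in RefSeq (build GRCm38.p6), read 5′ to 3′ on the gene's strand. Capitals mark CCAAT or TTTGAA on either strand, so CCAAT may appear as ATTGG and TTTGAA as TTCAAA.
Cdk1 (chr10:69352913-69353062, minus strand): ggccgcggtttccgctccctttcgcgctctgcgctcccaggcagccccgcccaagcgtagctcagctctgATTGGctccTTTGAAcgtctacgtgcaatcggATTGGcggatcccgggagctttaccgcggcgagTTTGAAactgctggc
Ube2c (chr2:164769779-164769928, plus strand): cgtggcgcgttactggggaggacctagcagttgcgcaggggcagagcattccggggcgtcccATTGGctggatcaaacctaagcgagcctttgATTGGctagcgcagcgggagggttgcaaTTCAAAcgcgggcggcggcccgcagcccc
Top2a (chr11:99024190-99024339, minus strand): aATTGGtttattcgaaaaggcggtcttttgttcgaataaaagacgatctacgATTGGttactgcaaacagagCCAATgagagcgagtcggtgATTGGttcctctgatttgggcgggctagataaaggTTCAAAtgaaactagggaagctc
Kif11 (chr19:37376232-37376381, plus strand): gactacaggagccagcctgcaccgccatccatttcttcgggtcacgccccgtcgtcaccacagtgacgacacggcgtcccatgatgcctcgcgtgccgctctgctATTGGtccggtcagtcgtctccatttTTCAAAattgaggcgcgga
Cdc20 (chr4:118437344-118437493, minus strand): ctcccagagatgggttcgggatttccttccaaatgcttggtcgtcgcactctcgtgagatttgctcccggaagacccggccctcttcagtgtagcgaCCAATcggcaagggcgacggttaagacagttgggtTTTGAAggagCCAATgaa
Birc5 (chr11:117849087-117849236, plus strand): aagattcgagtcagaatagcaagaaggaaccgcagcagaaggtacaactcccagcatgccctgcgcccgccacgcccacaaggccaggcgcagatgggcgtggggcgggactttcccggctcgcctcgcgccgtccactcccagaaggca

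Cdk1 encodes the kinase of mitotic entry, and its window holds CCAAT 80 and 48 bases before the start and TTTGAA at 71 and 15. Ube2c, the ubiquitin-conjugating enzyme of the anaphase promoting complex, has CCAAT at 88 and 57 and TTTGAA at 29. Top2a, the topoisomerase that untangles sister chromosomes, carries 4 CCAAT matches between 149 and 58 bases before the start, followed by TTTGAA at 23. Kif11, the kinesin that pushes spindle poles apart, has 1 of each, at 45 and 19. In Cdc20, the activator that hands substrates to the anaphase promoting complex, CCAAT stands at 53 and again at 8, with TTTGAA between them at 18. Birc5, survivin of the chromosomal passenger complex, has neither set of letters in these 150 bases.

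Windows of 300 bases, from 250 before to 50 after the start, were found for 36 of the 42 listed genes (38 windows), while Aurkb, Tpx2, Kif20a, Smc4, Ccna2 and Foxm1 were not matched. CCAAT on either strand was present in 31 of the 38 windows (81.6%), against 37.4% of all 32851 windows in the table. TTTGAA was present in 30 (78.9%), against 17.9% of all windows. The variant TTTAAA occurred in 23.7% against 13.2%, and CACCC, the core letters of a Klf1 motif, in 47.4% against 57.5%. TTTGAA lay 20 to 40 bases after a CCAAT in 18 windows (47.4%), against 0.895% of all windows, with a spacing of 24 to 38 and a median of 32 bases. That distance range was chosen after the positions were seen. The DNA replication genes, read the same way in 30 windows, held CCAAT in 18 but TTTGAA in 4 (13.3%), and the erythroid genes held CACCC in 82.4% of 17. A match describes letters in a window and is not evidence of binding.

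The mitosis genes varied together across the 36 mice. The highest mouse exceeded the lowest by 2.47-fold (Racgap1) to 8.68-fold (Smc4), with a median of 3.95-fold on the log2(intensity + 16) scale. The SD over 36 arrays ran from 0.30 for Kif23 to 0.59 for Smc4, and its median was 0.43, against 0.36 over all 27022 probe sets tested. A single animal, arthritic mouse 18, was the lowest for 35 of the 41 genes, and its mean over them lay 1.08 log2 units under the average of all mice. Non-arthritic mouse 12 was the highest for 17 genes, with a mean 0.65 above the average. Whether fewer dividing cells or less of these transcripts per cell underlie a low spleen cannot be told apart in RNA from whole tissue.

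**Figure D1:**
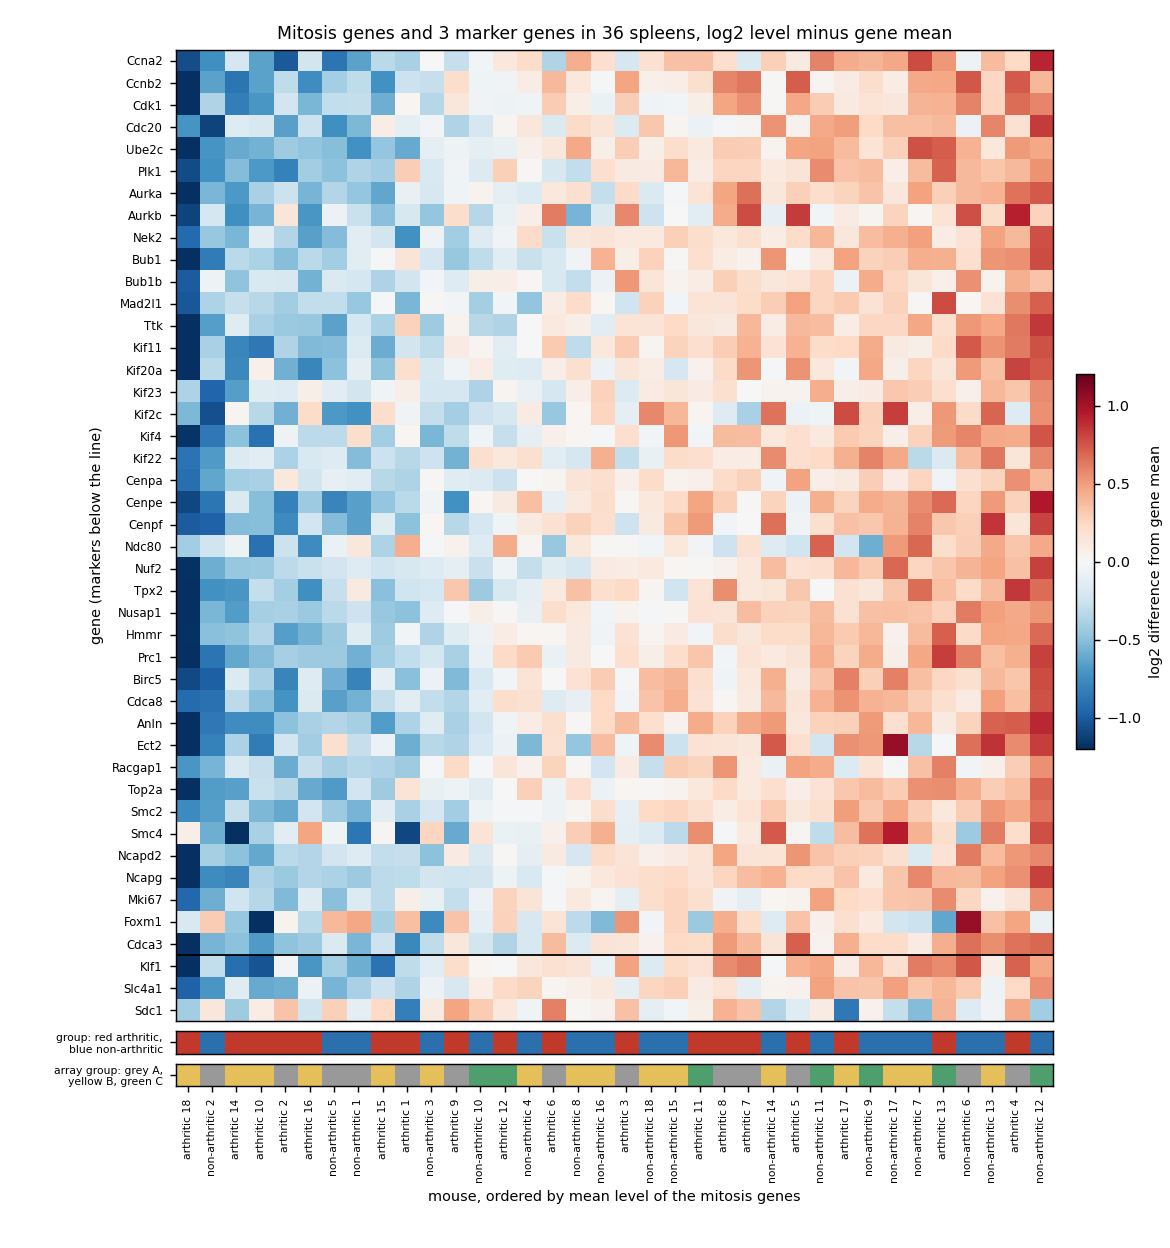
Log2 level of the 41 mitosis genes (rows above the line) and of Klf1, Slc4a1 and Sdc1 (below it) in 36 spleens, each gene minus its own mean, mice ordered by the mean of the mitosis genes. Colour strips give the group and the array group; arthritic 18 is lowest at the left and non-arthritic 12 highest at the right, most rows follow the same order, and Foxm1, Smc4 and Sdc1 depart from it.

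Over the 820 pairs of members, Pearson r across 36 mice had a median of 0.76 and ran from -0.16 to 0.97. Ccnb2, the gene of cyclin B2, and Cdk1, its kinase partner, formed the closest pair at 0.97. Birc5 and Smc2, the latter a condensin subunit that compacts chromosomes, followed at 0.96. Foxm1, the forkhead factor that activates late cell cycle genes, stood apart by the probe set used, with a mean r of 0.19 to the other members. Its lowest r was -0.16 with Smc4. Other probe sets of Foxm1 past the filter had r = 0.42 and 0.54 with the one used. Smc4, the condensin partner of Smc2, had a mean r of 0.40, and Ndc80, which binds microtubules at the kinetochore, 0.43. Other probe sets of Smc4 had r = 0.40 and 0.08 with the one used. These correlations are across mice that share an array platform and its scaling, and they are given as a description.

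The 36 arrays fell into 3 array groups by the signals of the RNAs added at hybridisation: A with 9 arthritic and 4 non-arthritic mice, B with 6 and 10, and C with 3 and 4. The labels name no such groups, and they were used to recompute each relation. Membership partly followed the mouse numbers. Arthritic mice 1 to 9 were in A, 11 to 13 in C and the rest in B. Non-arthritic mice 1, 2, 5 and 6 were in A, 9 to 12 in C and the rest in B. With the array group means taken out, the median r among members was 0.82. Markers of pancreas were high in 3 spleens (arthritic 8, non-arthritic 5 and 6), and their part in the levels of the mitosis genes was not tested. Without these arrays 38 members passed for Klf1 and 38 for Slc4a1 in the tests given next. Counts over all probe sets are not given for that setting, so these do not describe the members alone.

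All 41 slopes of the mitosis genes on Klf1 were positive, and 39 passed the test, against 12.3% of all 27021 probe sets tested with a positive and 15.5% with a negative slope (limma, group in the model, Benjamini-Hochberg adjustment). Pearson r with Klf1 over 36 mice had a median of 0.80 and ran from 0.28 to 0.96, against a median of -0.04 over all probe sets tested. Spearman rho had a median of 0.72. In permutation tests with 100000 resamples, adjusted over all probe sets tested for each marker gene, 38 members passed for r and 37 for rho. Over all 27021 probe sets, 6643 passed for r and 6478 for rho, in either direction. The smallest p these permutations can give is 1e-05.

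Klf1 itself ran from 10.85 through a median of 12.99 to 13.56 in arthritic and from 12.28 through 12.97 to 13.60 in non-arthritic spleens. The lowest 5 spleens for Cdk1 were arthritic mice of array group B, as the scatter plots show. Cdk1 ran from 10.19 through 11.83 to 12.40 in arthritic and from 11.37 through 11.72 to 12.33 in non-arthritic spleens, and the groups overlapped over most of this range. Its slope was 0.77 log2 per log2 unit of Klf1 (SE 0.04), with r = 0.96 and rho = 0.94 (permutation p = 1e-05 for each, adjusted p = 0.0002023 and 0.0002569). Without arthritic mice 18 and 10, the 2 farthest from the median of Klf1, r was 0.94, and within array groups A, B and C it was 0.94, 0.97 and 0.89.

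Ccnb2 had the steepest slope, 0.90 (SE 0.05), with r = 0.95 and rho = 0.93 (permutation p = 1e-05 for each, adjusted p = 0.0002023 and 0.0002569). Its levels ran from 10.08 through 12.02 to 12.60 in arthritic and from 11.22 through 11.94 to 12.62 in non-arthritic spleens, so that the medians differed little and the arthritic group reached lower. Aurka, the kinase of the spindle poles, followed with r = 0.91 and a slope of 0.69 (SE 0.06). It ran from 9.33 through 10.61 to 11.24 in arthritic and from 10.03 through 10.66 to 11.31 in non-arthritic spleens. Kif11 had r = 0.91, Ube2c 0.90 and Nusap1, a microtubule bundling protein of the spindle, 0.90. For these 3 genes the slopes lay between 0.64 and 0.75.

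Kif2c, a kinesin that shortens microtubules at the centromere, and Smc4 did not pass by the probe sets used. The slope of Kif2c on Klf1 was 0.20 (SE 0.13, limma adjusted p = 0.255), with r = 0.28 and rho = 0.22 (permutation p = 0.0979 and 0.194). The slope of Smc4 was 0.29 (SE 0.16, limma adjusted p = 0.175), with r = 0.32. Other probe sets of both genes past the filter had higher r with Klf1. It was 0.82, 0.71 and 0.38 for those of Kif2c and 0.46 and 0.49 for those of Smc4. Foxm1 passed in the model, with a slope of 0.32 (SE 0.12, limma adjusted p = 0.0465), but its r of 0.40 did not after adjustment (permutation p = 0.0156, adjusted p = 0.0602). In array group C the r of Foxm1 with Klf1 was -0.35.

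Leaving out arthritic mice 18 and 10 lowered the median r of the members with Klf1 to 0.71, and 34 members passed. The count over all probe sets is not given for that setting, so 34 does not describe the members alone. The median r was 0.80 in array group A, 0.90 in B and 0.78 in C. It was 0.83 among the 18 arthritic and 0.71 among the 18 non-arthritic mice. The slopes did not pass as different between the groups for any member (0 of 41 against 0% of all probe sets, limma interaction), with 13 members at an unadjusted p under 0.05 against 18.2% of all. Without non-arthritic mouse 6 this count was 8 rather than 0, and 3409 probe sets were then called in all.

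**Figure D2:**
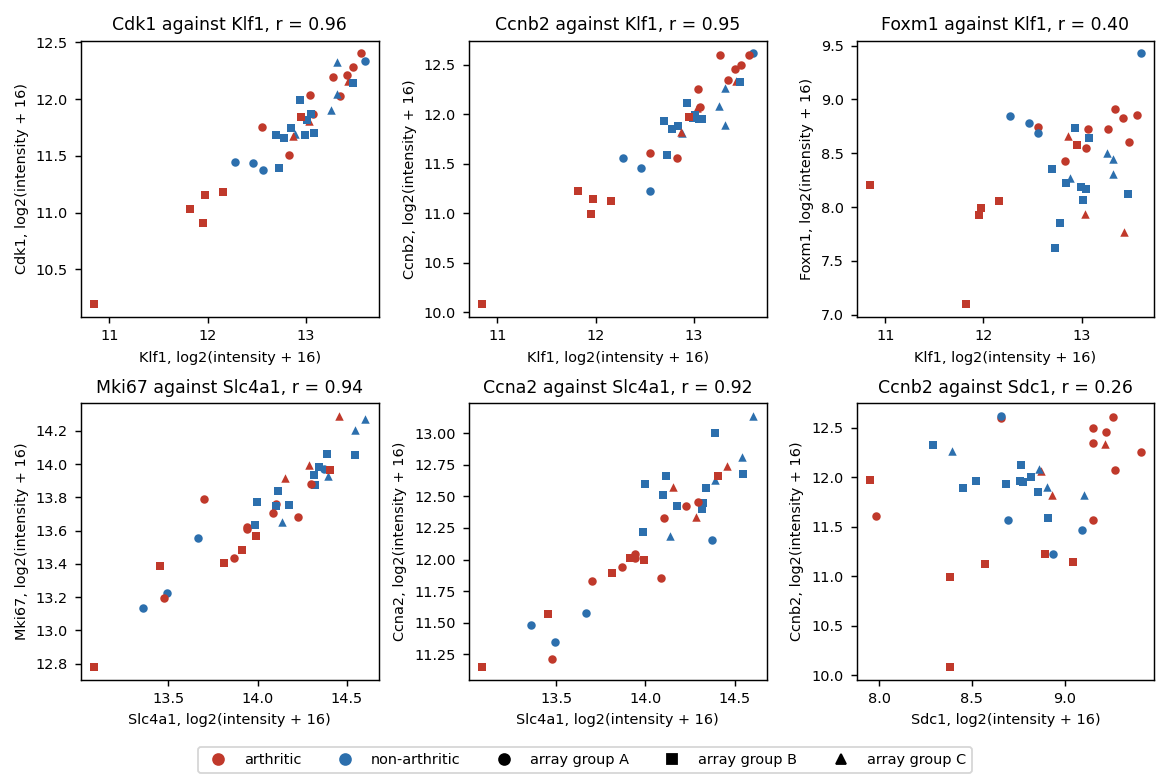
Level of 5 mitosis genes against Klf1, Slc4a1 or Sdc1 in 36 spleens, both axes log2(intensity + 16), 1 point per mouse, colour for group and shape for array group. Cdk1 and Ccnb2 follow Klf1 closely (r = 0.96 and 0.95), Mki67 and Ccna2 follow Slc4a1 (r = 0.94 and 0.92), while Foxm1 against Klf1 (r = 0.40) and Ccnb2 against Sdc1 (r = 0.26) spread widely.

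With Slc4a1, 38 of the 41 members had a positive slope past the threshold, against 8.17% of all 27019 probe sets tested with a positive and 8.03% with a negative slope (limma). The median r was 0.75, from 0.07 for Foxm1 to 0.94 for Mki67, against a median of -0.10 over all probe sets. Permutation tests passed 39 members for r and 39 for rho, against 5038 and 5002 of all 27019 probe sets in either direction. Slc4a1 ran from 13.09 through a median of 13.97 to 14.46 in arthritic and from 13.36 through 14.25 to 14.60 in non-arthritic spleens.

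Mki67, which encodes the Ki-67 protein that coats mitotic chromosomes and serves as a proliferation marker, ran from 12.78 through 13.65 to 14.29 in arthritic and from 13.14 through 13.86 to 14.27 in non-arthritic spleens. The groups overlapped, with arthritic mouse 18 alone under 13. Its slope on Slc4a1 was 0.84 (SE 0.06), with r = 0.94 and rho = 0.93 (permutation p = 1e-05 for each, adjusted p = 0.0003236 and 0.0004039). Without arthritic mouse 18 and non-arthritic mouse 2, r was 0.91, and it was 0.88, 0.97 and 0.87 within array groups A, B and C. Ccna2, the gene of cyclin A2, had r = 0.92 and the steepest slope, 1.21 (SE 0.10). Cenpe, the kinesin that carries chromosomes to the spindle equator, had r = 0.91 and a slope of 1.202 (SE 0.10), and Birc5 had r = 0.90 and a slope of 1.12 (SE 0.10).

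Ndc80 (slope 0.43, SE 0.16, limma adjusted p = 0.0588), Smc4 (0.57, SE 0.25, limma adjusted p = 0.111) and Foxm1 (0.07, SE 0.21, limma adjusted p = 0.853) did not pass for Slc4a1 in the model. In the permutation tests Ndc80 passed for both r = 0.48 (adjusted p = 0.0211) and rho = 0.47 (adjusted p = 0.0289). Smc4 passed for rho = 0.44 (permutation test, adjusted p = 0.0435) and not for r = 0.39 (adjusted p = 0.0796). Other probe sets past the filter had r with Slc4a1 of 0.72 and -0.01 for Smc4, and of 0.55 and 0.28 for Foxm1. Without arthritic mouse 18 and non-arthritic mouse 2 the median r of the members was 0.65 and 34 passed, with no count over all probe sets given. Within array groups A, B and C the median was 0.87, 0.81 and 0.77. No member had a slope called different between arthritic and non-arthritic mice (limma interaction, 0% of all probe sets), with 3 at an unadjusted p under 0.05 against 10.2% of all.

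Klf1 and Slc4a1 were themselves related (r = 0.73 over 36 mice, and 0.85, 0.91 and 0.83 within A, B and C), yet the members divided between them: 22 had the higher r with Klf1 and 19 with Slc4a1. All 22 of the former had a higher mean in array group A than in B, and 16 of the 19 latter a lower mean in A. The markers had such offsets too: mean Klf1 was 13.04 in A and 12.58 in B, mean Slc4a1 13.89 and 14.06. These offsets enter every r over 36 mice, so the division cannot be read apart from them. Aurkb, the kinase of the chromosomal passenger complex, had r = 0.82 with Klf1 and 0.44 with Slc4a1, and its mean was 10.23 ± 0.44 (SD, n = 13) in A and 9.603 ± 0.395 (SD, n = 16) in B. Cdc20 had r = 0.49 with Klf1 and 0.81 with Slc4a1, and its mean was 12.06 ± 0.38 (SD, n = 13) in A and 12.46 ± 0.34 (SD, n = 16) in B. Kif2c had 0.28 and 0.70, with means of 9.09 ± 0.35 and 9.68 ± 0.41 in A and B. Across the 41 genes, the difference between both correlations and the offset of A from B had r = -0.96, which describes genes measured on the same arrays and is no test.

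Within single array groups the values lay closer together for these genes, as a description. Kif2c had r = 0.70, 0.60 and 0.82 with Klf1 in A, B and C, and Aurkb 0.84, 0.81 and 0.85 with Slc4a1. The ratio of the 3′ to the 5′ Gapdh probe sets, a measure of RNA integrity and labelling, was 0.751 ± 0.059 (SD, n = 13) in A, 1.00 ± 0.09 (SD, n = 16) in B and 0.911 ± 0.061 (SD, n = 7) in C. Its part in the offsets was not tested. Probe sets of 1 gene could also differ: of the 21 further probe sets of members closer to Slc4a1, 16 had the higher r with Klf1, as did 16 of the 22 further probe sets of members closer to Klf1. The other probe set of Ccna2 had r = 0.95 with Klf1 and 0.72 with Slc4a1, and a second one of Cdc20 had 0.91 and 0.66.

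**Figure D3:**
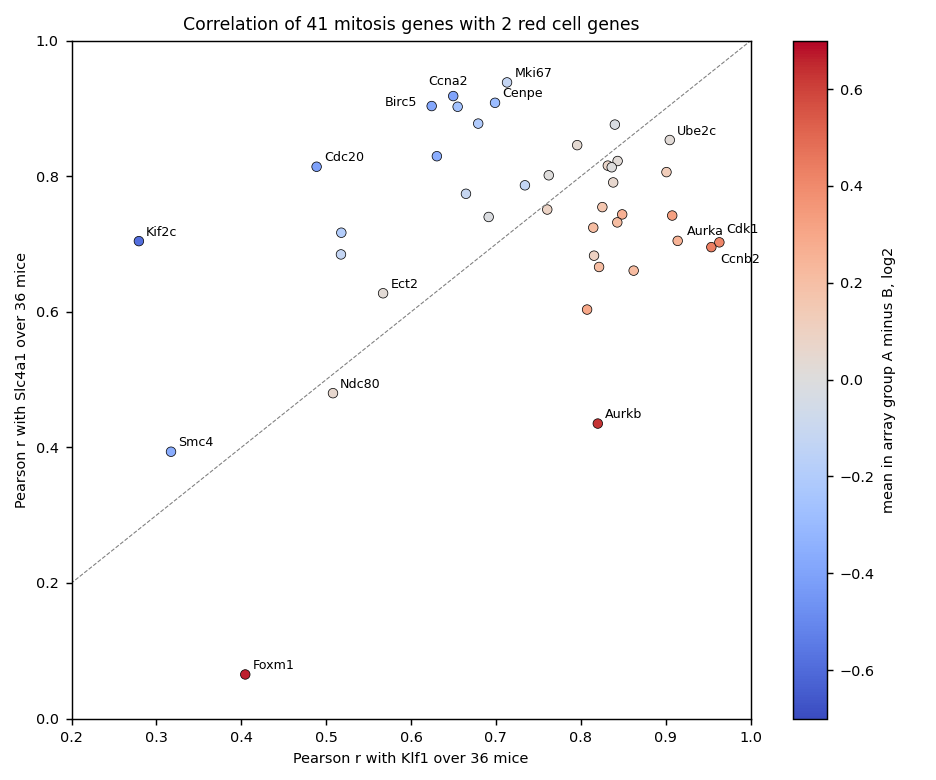
Pearson r of each of the 41 mitosis genes with Klf1 (horizontal) and with Slc4a1 (vertical) over 36 mice, 1 point per gene, coloured by its mean log2 level in array group A minus B; the dashed line marks equal r. Genes above the line such as Kif2c and Cdc20 are mostly lower in A (blue), and those under it, such as Aurkb and Foxm1, are higher in A (red).

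No mitosis gene had a slope on Sdc1 that passed, in either direction, against 4.92% of all probe sets with a positive and 2.88% with a negative slope (limma). The median r with Sdc1 was 0.01, from -0.44 for Kif2c to 0.33 for Aurkb. Sdc1 ran from 7.95 through 8.99 to 9.41 in arthritic and from 8.29 through 8.77 to 9.11 in non-arthritic spleens. For Kif2c the slope was -0.54 (SE 0.19, limma adjusted p = 0.0766), and its rho of -0.51 passed the permutation test (p = 0.00146, adjusted p = 0.0212) where its r did not (p = 0.00702, adjusted p = 0.0623). By the median over all its probe sets the slope was 0.68. Further Kif2c probe sets past the filter had r = 0.31, -0.19 and 0.0017 with the one used. The slope of Aurkb was 0.43 (SE 0.21), that of Ccnb2 0.43 (SE 0.24) and that of Racgap1, a regulator of the central spindle, 0.25 (SE 0.16), and each was below 0 within array groups B and C and in non-arthritic mice.

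The correlations with Sdc1 lay mostly on opposite sides of 0 in arthritic and non-arthritic mice. The median r was 0.29 among arthritic mice, where 37 members lay above 0, and -0.55 among non-arthritic mice, where 40 lay below 0. The difference of slopes passed for no member after adjustment (limma interaction, lowest adjusted p = 0.0789 for Tpx2, a spindle assembly factor), against 0.167% of all probe sets. At an unadjusted p under 0.05 it stood at 36 of 41, against 14.6% of all, and at 35 without arthritic mouse 18. Klf1 and Sdc1 had r = 0.49 among arthritic and -0.44 among non-arthritic mice. This test of slopes was added after the data were seen.

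Between arthritic and non-arthritic spleens, no mitosis gene passed the test in either direction, against 0.0481% of all 27022 probe sets (13, all higher; limma). Of the 41 differences, 39 were below 0, where 49.1% of all probe sets were, and their median was -0.18, against 0.003 over all. Among the 43 further probe sets of these genes past the filter, 30 had a difference below 0 and 0 were called. Their median r with the set used was 0.52. The members varied together across mice, so their signs are not separate readings. Without arthritic mouse 18 the median of the members was -0.12. At an unadjusted p under 0.05, 5 members were lower in arthritic spleens and none higher, against 6.87% of all probe sets lower. Adjusted p ran from 0.184 to 0.989 over the members, and the Wilcoxon rank-sum test also called 0.

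Among the cyclins and Cdk1, Ccna2 ran from 11.15 through 12.01 to 12.74 in arthritic and from 11.35 through 12.48 to 13.14 in non-arthritic spleens. The ranges overlapped, though 15 of 18 arthritic mice lay below the non-arthritic median. The difference was -0.32 (SE 0.15, limma adjusted p = 0.286), beside -0.10 (SE 0.17) for Ccnb2 and -0.11 (SE 0.15) for Cdk1. Ube2c ran from 11.52 through 12.95 to 13.65 in arthritic and from 12.20 through 13.03 to 13.69 in non-arthritic spleens, with a difference of -0.16 (SE 0.15), and in both groups most spleens shared 1 range. Cdc20 ran from 11.63 through 12.25 to 12.84 and from 11.23 through 12.53 to 13.18, with a difference of -0.17 (SE 0.13). Its lowest and highest spleens were both non-arthritic.

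Of the mitotic kinases, Nek2, which separates centrosomes, had the smallest p of all members. It ran from 9.27 through 10.12 to 10.59 in arthritic and from 9.68 through 10.36 to 10.98 in non-arthritic spleens, with an arthritic minus non-arthritic difference of -0.31 (SE 0.11, limma adjusted p = 0.184). Its ranges overlapped, with 14 of 18 arthritic mice below the non-arthritic median. The other Nek2 probe set past the filter had a difference of 0.07 (limma adjusted p = 0.801) and r = 0.51 with the one used. By the median over all probe sets of Nek2 the difference was 0.084, so its direction depended on the probe set. Aurkb was 1 of 2 members with a difference above 0 (0.09, SE 0.15), running from 8.77 through 10.004 to 10.81 and from 9.33 through 9.83 to 10.65. Its groups overlapped almost throughout. Plk1, the polo kinase, differed by -0.14 (SE 0.14) and Aurka by -0.10 (SE 0.14).

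The checkpoint genes, which hold anaphase until every kinetochore is attached, differed by -0.05 to -0.19. Mad2l1, the Mad2 subunit of the checkpoint inhibitor, ran from 10.28 through 11.27 to 12.08 in arthritic and from 10.82 through 11.32 to 12.01 in non-arthritic spleens, with a difference of -0.05 (SE 0.12). Bub1b, which encodes BubR1, had 1 of the 3 smallest SDs, 0.32, and ran from 8.93 through 9.82 to 10.45 and from 9.63 through 9.99 to 10.48. Its difference was -0.18 (SE 0.10), and the groups overlapped apart from the lowest arthritic mice. Bub1, the kinase that recruits BubR1, differed by -0.19 (SE 0.14), and Ttk, the Mps1 kinase that starts checkpoint signalling, by -0.15 (SE 0.15).

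All 6 kinesins had differences below 0. Kif22, a kinesin that binds chromosome arms, ran from 11.38 through 12.11 to 12.69 in arthritic and from 11.58 through 12.47 to 12.89 in non-arthritic spleens, with an arthritic minus non-arthritic difference of -0.25 (SE 0.12, limma adjusted p = 0.289), and 17 of 18 arthritic mice lay below the non-arthritic median. Kif23, a motor of the central spindle, had the smallest SD and ran from 9.72 through 10.39 to 10.71 and from 9.43 through 10.47 to 10.95, with a difference of -0.09 (SE 0.10). Its lowest spleen was non-arthritic mouse 2. Kif2c ran from 8.86 through 9.31 to 10.22 and from 8.39 through 9.61 to 10.27, with a difference of -0.18 (SE 0.14). Kif11 differed by -0.20 (SE 0.15), Kif4, which compacts chromosomes and organises the central spindle, by -0.16 (SE 0.14), and Kif20a, which acts in cytokinesis, by -0.15 (SE 0.14).

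The 5 centromere and kinetochore genes had differences of -0.13 to -0.32. Cenpf, a large kinetochore protein, ran from 9.98 through 10.88 to 11.49 in arthritic and from 10.01 through 11.21 to 11.83 in non-arthritic spleens, with an arthritic minus non-arthritic difference of -0.32 (SE 0.14, limma adjusted p = 0.264). Its ranges overlapped, with 15 of 18 arthritic mice below the non-arthritic median. Ndc80 differed by -0.25 (SE 0.12, limma adjusted p = 0.29) and Nuf2, its partner at the kinetochore, by -0.21 (SE 0.12). Cenpe ran from 9.07 through 10.08 to 10.84 and from 9.30 through 10.41 to 11.12, with a difference of -0.29 (SE 0.15). The ranges of all 5 genes overlapped. Cenpa, the histone variant that defines the centromere, ran from 10.64 through 11.53 to 12.09 and from 10.92 through 11.63 to 11.93, with a difference of -0.13 (SE 0.10).

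Of the 9 spindle assembly, passenger and cytokinesis genes, 8 had differences below 0. Nusap1 ran from 10.44 through 11.91 to 12.34 in arthritic and from 11.33 through 11.98 to 12.50 in non-arthritic spleens (difference -0.24, SE 0.13), and Birc5 from 11.36 through 12.40 to 13.05 and from 11.46 through 12.74 to 13.22 (difference -0.25, SE 0.14). Anln, which encodes the anillin of the cleavage furrow, ran from 9.12 through 10.66 to 11.36 and from 9.77 through 10.83 to 11.54 (difference -0.26, SE 0.16). In each of these 3 genes the ranges overlapped and arthritic mouse 18 was the lowest. Ect2, which is needed for cytokinesis, differed by -0.26 (SE 0.17), running from 8.64 through 9.86 to 10.49 and from 9.11 through 9.93 to 10.97. Cdca8, borealin of the passenger complex, ran from 10.66 through 11.497 to 12.12 and from 10.69 through 11.850 to 12.35, with a difference of -0.20 (SE 0.13). Racgap1, with the narrowest range of all members, ran from 9.33 through 10.14 to 10.64 and from 9.48 through 10.02 to 10.58, a difference of 0.0048 (SE 0.11). Prc1, which bundles microtubules of the central spindle, differed by -0.20 (SE 0.15), Hmmr, a spindle-associated hyaluronan receptor, by -0.17 (SE 0.13), and Tpx2 by -0.14 (SE 0.15).

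Among the chromosome structure genes, Mki67 differed by -0.17 (SE 0.10). Top2a ran from 11.32 through 12.58 to 13.13 in arthritic and from 11.89 through 12.76 to 13.26 in non-arthritic spleens, with an arthritic minus non-arthritic difference of -0.19 (SE 0.13). Smc4, the most variable member, ran from 10.30 through 12.52 to 13.04 and from 11.61 through 12.70 to 13.42, a difference of -0.27 (SE 0.18), and its lowest spleen was arthritic mouse 14 rather than 18. The condensin genes Smc2, Ncapd2 and Ncapg differed by -0.21 (SE 0.11), -0.11 (SE 0.13) and -0.20 (SE 0.14). Of the 2 regulators, Foxm1 ran from 7.10 through 8.56 to 8.91 and from 7.62 through 8.33 to 9.43 (difference -0.04, SE 0.15), and Cdca3, which helps to trigger mitotic entry, from 9.09 through 10.71 to 11.28 and from 10.002 through 10.64 to 11.25 (difference -0.10, SE 0.16). In neither gene did the groups separate.

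The direction differed between array groups. In A, with 9 arthritic and 4 non-arthritic mice, the median difference of the members was 0.31 and 39 of 41 were above 0. In B it was -0.57 with all 41 below 0, and in C it was -0.11 with 32 below 0. Within A and within C, 0 members and 0 of all probe sets passed (limma). The spleens with high pancreas markers (arthritic 8, non-arthritic 5 and 6) were all in A. Their means over the members lay at 0.21, -0.37 and 0.36 from the average of all mice. Within B, where 6 arthritic and 10 non-arthritic mice were compared, 16 members passed as lower in arthritic spleens, against 1.45% of all probe sets (limma), among them Ccnb2 (-0.87, SE 0.18, limma adjusted p = 0.0258), Anln (-0.86, SE 0.19), Kif11 (-0.74, SE 0.18) and Cdk1 (-0.72, SE 0.17). The count depended on single animals, as did the lower calls over all 27022 probe sets. Without arthritic mouse 14, 15, 16 or 18 it was 0, beside 1, 2, 1 and 0 of all probe sets. Without arthritic mouse 17 it was 34 (4.13% of all), and without arthritic mouse 10 it was 15 (2.11%). Leaving out each non-arthritic mouse in turn gave 4 to 17 (0.518% to 1.7% of all). The median difference ran from -0.71 to -0.40 without single arthritic mice and from -0.61 to -0.53 without single non-arthritic mice. Without mouse 18 the median difference in B was -0.40.

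The red cell genes differed with the same signs. For Klf1 the arthritic minus non-arthritic difference came to 0.45, -1.01 and -0.09 in array groups A, B and C, and for Slc4a1 to 0.24, -0.45 and -0.12. A test of whether the group difference varied among array groups passed for no member (limma F test, lowest adjusted p = 0.0621), against 0.037% of all probe sets, with 35 members at an unadjusted p under 0.05 against 16.7% of all. With Klf1 in the model, the median difference of the members over 36 mice was -0.07, and with Sdc1 in the model it was -0.18. Such a model describes levels read from the same arrays, and the part of the red cell genes in the difference was not tested by it.

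**Figure D4:**
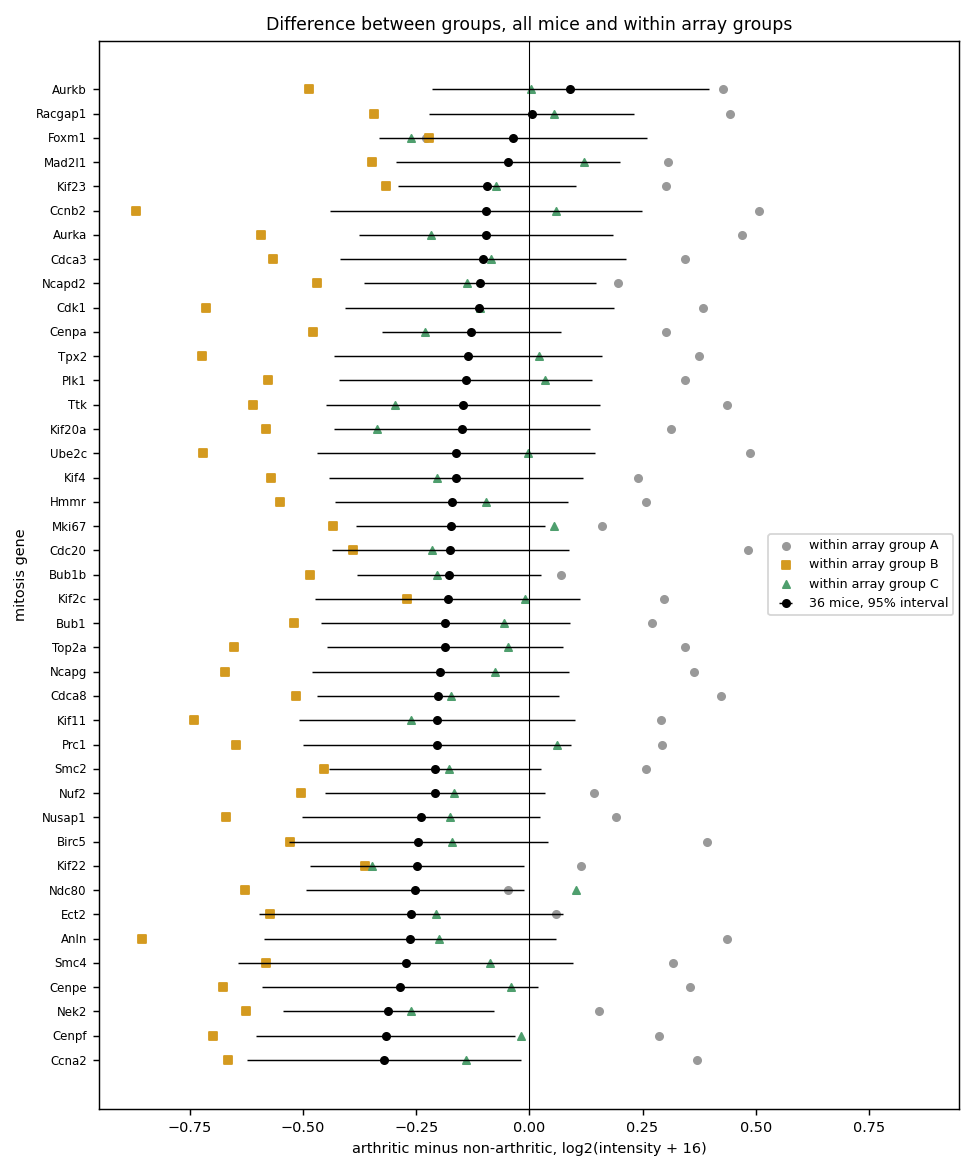
Arthritic minus non-arthritic difference, log2(intensity + 16), of the 41 mitosis genes over 36 mice (black, with 95% interval) and within array groups A (grey), B (yellow) and C (green). The black points lie between -0.32 and 0.09, the B points all below 0 and 39 of the A points above 0.

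The spread around the group median did not pass as different for any member (0 of 41, 0% of all probe sets, limma on absolute deviations). It was wider in arthritic spleens for 29 and narrower for 12, with 3 (Ccnb2, Aurkb and Cdk1) at an unadjusted p under 0.05, against 5.95% of all probe sets wider at that level. The mean absolute deviation of Ccnb2 was 0.54 in arthritic and 0.22 in non-arthritic spleens.

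**Figure D5:**
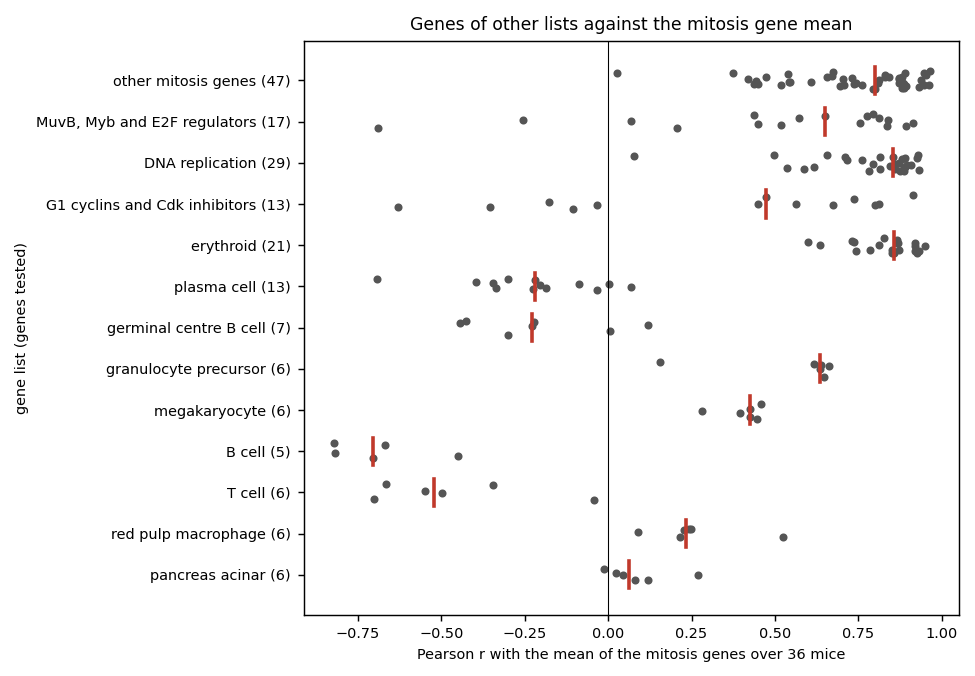
Pearson r across 36 mice of single genes (points) with the mean of the mitosis genes, by gene list, with the median of each list as a red bar and the number of genes tested in brackets. Erythroid and DNA replication genes sit at the right (medians 0.86 and 0.85), B cell genes at the left (median -0.70).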

How the data were processed

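Per the labels' protocols, Trizol was used to isolate RNA from the 36 spleens, and biotin-labelled targets were hybridised by the manufacturer's procedure. The deposited values are array intensity on a linear scale, made by the authors with MAS5 (per the submitters' processing notes, which give no version here). Values ran from 0.103 to 67960, with array medians of 110.6 to 183.2. They were used as log2(value + 16) without further normalization, since each array had been scaled. The 64 control probe sets and those with a mean below the 40th percentile (log2 6.49) were left out, leaving 27022 of 45101. Of these 45101, 34958 name a single gene in the platform annotation, and 34754 matched the reference (GRCm38.p6).

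Groups, slopes on a marker gene (with group in the model) and interactions were fitted with limma 3.58.1 in R 4.3.3 (lmFit, eBayes with trend, two-sided) over all tested probe sets, with Benjamini-Hochberg adjustment and a threshold of 0.05. Permutation p-values and promoter matches used Python 3.11.15 with numpy 2.4.6, pandas 2.3.3 and scipy 1.17.1, and figures matplotlib 3.10.9. The fits were tested on simulated data with independent noise for each probe set. Those data held no array group offsets, so the test does not cover them. Array groups are Ward clusters of 18 hybridisation control probe sets, each array and probe set centred, with their number set to 3 after the data were seen. The labels do not say that the mice came from separate litters or runs, so p-values measure the spread between these animals.

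The members and lists were chosen with earlier results of these data known. Named in full were the member of highest mean in each role, Ccna2, Mki67, Cdk1, Top2a and Foxm1, the 4 with the smallest p between groups, the 3 largest and 3 smallest SDs, and for each marker slope the 3 largest and 3 smallest r. From other lists up to 4 genes with the smallest p were taken, with the 10 genes most alike and Il1rn, Klf1, Slc4a1 and Sdc1. Alternatives changed the pseudocount, filter, normalization, variance prior, covariates, probe set rule, test and arrays.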

Additional observations from a re-analysis of the deposited data

How the results depend on the processing

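Counts of members called kept their side of the threshold, or stayed within 1.5 times, under pseudocounts of 1 and 64, no filter or a filter at the 60th percentile, quantile normalization, a variance prior without trend, an array group block, and without the arrays with pancreas genes. Within array group A the median difference was 0.31, and within B -0.57 with 16 members called lower (1.45% of all probe sets). Slc4a1 slopes called 13 members within B and 0 within C, Klf1 slopes 0 within C and 25 within non-arthritic mice. The median r of the members there was 0.81 and 0.77 with Slc4a1, and 0.78 and 0.71 with Klf1. For Sdc1, 1 member passed within non-arthritic mice, 5 with Klf1 as covariate and 1 by the median of probe sets. Permutation of rho on Sdc1 passed 1 member, beside 3546 of all 27019 probe sets. Shares over all probe sets are not given for the other slope counts up to here, so these do not describe the members alone. Leaving out single mice gave 0 to 0 members between groups (0 to 389 of all probe sets, against 13) and a median difference of -0.23 to -0.12. Slopes on Klf1 then passed for 37 to 39 members (5967 to 7966 of all probe sets, in either direction). On Slc4a1 they passed for 37 to 39 (3266 to 5002) and on Sdc1 for 0 to 1 (1034 to 3382). The Klf1 interaction gave 0 to 8 (0 to 3409) and spread 0 to 0 (0 to 0). The cause was not tested.

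Differences turned sign within A for Ube2c (0.49), Cenpa (0.30), Birc5 (0.39), Mki67 (0.16), Ccna2 (0.37), Anln (0.44), Kif22 (0.11), Aurka (0.47), Cdca3 (0.34), Nusap1 (0.19), Mad2l1 (0.31), Cdk1 (0.38), Top2a (0.34), Nek2 (0.15), Cenpf (0.29), Smc4 (0.32), Ccnb2 (0.51), Ect2 (0.060), Kif23 (0.30) and Bub1b (0.070), and within C for Mki67 (0.053), Mad2l1 (0.12) and Ccnb2 (0.060). With Klf1 as covariate they did for Aurka (0.045), Cdca3 (0.044), Mad2l1 (0.046), Cdk1 (0.047), Foxm1 (0.028) and Ccnb2 (0.087), by the median of probe sets for Aurka (0.037) and Nek2 (0.084), and without the pancreas arrays for Foxm1 (0.024). Leaving out single mice gave Mad2l1 -0.095 to 0.011 and Ccnb2 -0.14 to 0.0060, above 0 without arthritic mouse 18, and Foxm1 -0.083 to 0.038, above 0 without non-arthritic mouse 6 or arthritic mouse 10. The slope of Foxm1 turned on Klf1 within C (-0.64) and on Slc4a1 within C (-0.087), within non-arthritic mice (-0.26) and without arthritic mouse 10 (range without single mice -0.092 to 0.15), and that of Smc4 on Slc4a1 within C (-0.029). Slopes on Sdc1 turned within B, C and non-arthritic mice for Aurkb (-0.41, -0.47, -0.58), Ccnb2 (-0.43, -0.28, -0.84) and Racgap1 (-0.17, -0.33, -0.55), with Klf1 as covariate for Ccnb2 (-0.019), and by the median of probe sets for Racgap1 (-0.063), Kif2c (0.68) and Cdc20 (0.41). The cause was not tested.

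The labels give no pairing of same-numbered mice, and none was used in the main fits. Over 18 such pairs the correlation of their deviations ran from -0.23 to 0.47 with a median of 0.15. It was over 0.1 in 11, and 2 of them correlated best with their own number. These values do not settle whether the mice were paired. With the replicate number as a block, 0 members were called, 369 probe sets in all against 13 without it, and the median difference was -0.18.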

Other observations

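Other cell cycle lists were read against the mean of the mitosis genes, and Mybl2, Rbl2, Ccnd3 and Ccnd1 are named because of their values. Of 47 further mitosis genes tested, 37 had a positive slope past the threshold on Klf1 and 41 on Slc4a1 (limma), where 12.3% and 8.17% of all probe sets did and 15.5% and 8.03% had a negative one, none was called between arthritic and non-arthritic spleens, and 40 differences were below 0. The 4 with the smallest unadjusted p for that comparison included Bub3 (-0.14, SE 0.06), Cks1b (-0.26, SE 0.12) and Cit (-0.34, SE 0.16). Of 29 DNA replication genes, which act in the phase before mitosis, 26 passed for Klf1 and 25 for Slc4a1, and 27 differences were below 0, the smallest p belonging to Fen1 (-0.36, SE 0.18). Their median r with the mitosis gene mean was 0.85, against 0.80 for the further mitosis genes and -0.09 over all probe sets. The MuvB, Myb and E2F regulators divided: 9 of 17 passed as positive and 1 as negative for Klf1, with Mybl2, which encodes B-Myb, at r = 0.88 and Rbl2, the p130 protein of resting cells, at -0.78. Rb1 had the smallest p between the groups (-0.33, SE 0.10, limma adjusted p = 0.123). Of 13 G1 cyclins and Cdk inhibitors, 6 were positive and 1 negative for Klf1, beside the same shares of 12.3% and 15.5% over all probe sets. Ccnd3, a cyclin of red cell precursors, had r = 0.81 with the mitosis gene mean and Ccnd1 -0.63.

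Over 12385 other genes, the 10 whose levels followed the mitosis gene mean most closely across 36 mice were Plk4, Hmgb3 and Ckap2 (r = 0.96 each), then Pbk, Gmnn, Gpsm2, Urod, Ermap, Slc38a5 and Aqp1 (r = 0.95 each). Plk4 and Ckap2 act in centriole copying and on the spindle, while Urod makes haem and Ermap and Aqp1 lie in the red cell membrane. The 21 erythroid markers had a median r of 0.86 with the mitosis gene mean, from 0.60 for Epb42 to 0.95 for Ermap. Granulocyte precursor markers had a median of 0.64 (6 genes), megakaryocyte markers 0.43 (6) and red pulp macrophage markers 0.23 (6). Germinal centre B cell markers stood at -0.23 (7), plasma cell markers at -0.22 (13), T cell markers at -0.52 (6), B cell markers at -0.70 (5) and pancreas acinar markers at 0.06 (6). In none of these lists was a gene called between the groups, and the part of cell makeup in the levels of the mitosis genes was not tested.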
